A study of Rattus norvegicus with 16 samples.

Results

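Vcam1, Icam1, Icam2, Thbd, Flt1, Kdr and Edn1 are genes of the blood vessel lining, and their RNA was compared between the muscles that turn the rat eyeball (extraocular muscle) and a rat skeletal muscle labelled TA. The 7 genes were taken as every array feature (probe set) whose only gene symbol in the platform's annotation is one of these names. This gave 10 probe sets of 8799 on the array, for 7 of the 4737 genes named there, and all 10 passed the filter on dim probe sets. Vcam1, Icam1 and Thbd had 2 probe sets each and the other 4 genes had 1. Each probe set was followed on its own, because intensities of different probe sets are not on a common scale.

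The samples were total RNA of whole muscle on single-colour arrays. They form the groups EOM (extraocular muscle, 4 arrays, 4 numbered samples), TA_6h (TA muscle collected at 6 hours, on 8 arrays, 4 numbered samples) and TA_1h (TA muscle collected at 1 hour, on 4 arrays, 2 numbered samples). Strain, age, sex, genotype and treatment are not stated in the labels, nor is the event from which the hours count, and EOM has no stated time. Arrays of the same number were averaged as 1 sample. Joining the TA_6h arrays 1 and 2, which carry no letter, with arrays 1b and 2b is an inference. The labels do not say that numbers stand for separate animals, so every p-value here is set by variation among these samples, which could be technical.

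VCAM-1 and ICAM-1 are surface proteins that activated endothelium presents to integrins on leukocytes, and ICAM-2 is a related integrin ligand that resting endothelium carries. Thrombomodulin, the product of Thbd, binds thrombin on the vessel wall and turns it toward activating the anticoagulant protein C. Flt1 and Kdr encode the VEGF receptors VEGFR-1 and VEGFR-2, and Edn1 encodes the precursor of endothelin-1, a constrictor peptide released by endothelium. Vcam1 and Icam1 are textbook targets of the cytokine-driven transcription factor NF-kappaB.

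The sequences before the gene starts are shown for Vcam1 and Icam1, because these genes were the adhesion molecules with higher values in EOM and both promoters are known for NF-kappaB sites. RefSeq promoter entries on build GRCr8 matched 5 of the 7 genes, all but Icam2 and Thbd. Each run below holds the 250 bases before the annotated start, 5′ to 3′ on the gene's strand, at chr2:206742784-206743033 on the minus strand for Vcam1 and at chr8:27829595-27829844 on the plus strand for Icam1. Capitals mark matches on either strand to GGNNNTTCC, a short form of the NF-kappaB site. Forms of the site outside this pattern stay in lower case, and a capital run need not be a site known from earlier work.
Vcam1: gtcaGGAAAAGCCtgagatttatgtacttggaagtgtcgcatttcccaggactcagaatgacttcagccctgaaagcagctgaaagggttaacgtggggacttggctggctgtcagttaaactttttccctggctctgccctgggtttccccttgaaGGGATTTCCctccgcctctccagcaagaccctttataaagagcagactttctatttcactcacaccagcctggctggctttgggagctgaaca
Icam1: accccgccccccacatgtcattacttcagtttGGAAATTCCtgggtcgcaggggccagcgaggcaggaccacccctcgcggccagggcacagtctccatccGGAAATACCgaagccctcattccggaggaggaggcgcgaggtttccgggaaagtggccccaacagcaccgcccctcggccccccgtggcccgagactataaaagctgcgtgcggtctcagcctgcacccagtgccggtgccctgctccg
In Vcam1 the matches began at -246 and -93 relative to the start, and in Icam1 at -218, where both strands match, and at -149. Flt1, Kdr and Edn1 had no match in the same window. Of all 33469 promoters of this length in the table, 15.4% held the motif, and a match is a description of letters, not of binding.

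Among the arrays, 66.3 to 67.3% of the 8740 probe sets that are not controls lay above the floor in EOM and 74.7 to 81.1% in TA. The floor was the 25th percentile of all intensities, 56.5, to which lower values were raised before log2 was taken. Of the EOM intensities 24.3% were below 0, while no TA intensity was at or below 0, so wherever EOM is set against TA, muscle and the authors' summary step cannot be told apart. On 5 TA arrays (TA_6h 3a, 3b, 4a and 4b, and TA_1h 2b) the beta-actin control, a check of RNA length, had a ratio of its middle to its 3′ probe set between 0.146 and 0.390. That ratio was 0.891 to 0.978 on EOM arrays and 0.815 to 1.28 on the remaining TA arrays. Myh13, a myosin of eye muscles, averaged 7677 ± 346 in EOM, 240 ± 98.2 in TA_6h and 284 ± 7.06 in TA_1h (SD, n = 4, 4 and 2). Ckm, the muscle creatine kinase and a general marker of skeletal muscle, was below the floor on 3 of the 8 TA_6h arrays and 1 of the 4 TA_1h arrays.

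Against TA_6h, 7 of the 10 probe sets were called, with 5 higher and 2 lower in EOM. A call is an adjusted p under 0.05 in limma, a linear model fitted to all 7640 tested probe sets, which called 47.2% of them in this comparison, 21.9% higher and 25.3% lower. The median log2 difference of the 10 was 0.97, beside -0.11 over all tested probe sets. That median counts Vcam1, Icam1 and Thbd by 2 probe sets each. With each gene counted once, by its brightest probe set, 2 of the 7 genes were higher, 2 lower and 3 not called, with a median of 0.07, beside -0.08 over 4317 genes. The arrays of EOM and TA_6h did not overlap at all in 6 of the 10, against 40.8% of all tested probe sets. The second comparison, with TA_1h, uses the same EOM samples and so is not independent of the first. It called 6 of the 10, 4 higher and 2 lower, where 37.2% of all tested were called, 17.7% higher and 19.5% lower. The median difference there was 1.01, beside -0.09 over all. Counted once per gene it was 0.08, with 1 gene higher, 2 lower and 4 not called. In that comparison 7 of the 10 had no overlap of arrays, against 49.3% of all. Against both TA groups, 6 of the 10 were called with the same sign. They were 1 of Vcam1, both of Icam1, that of Icam2 and both of Thbd, where 33.9% of all tested met that condition. The probe set counts and medians include Vcam1 M84488_at and Icam2. These passed the filter only through the muscle where they are high, so their calls lend these counts no support of their own. Their floored samples also add almost no spread to the p-values.

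**Figure D1:**
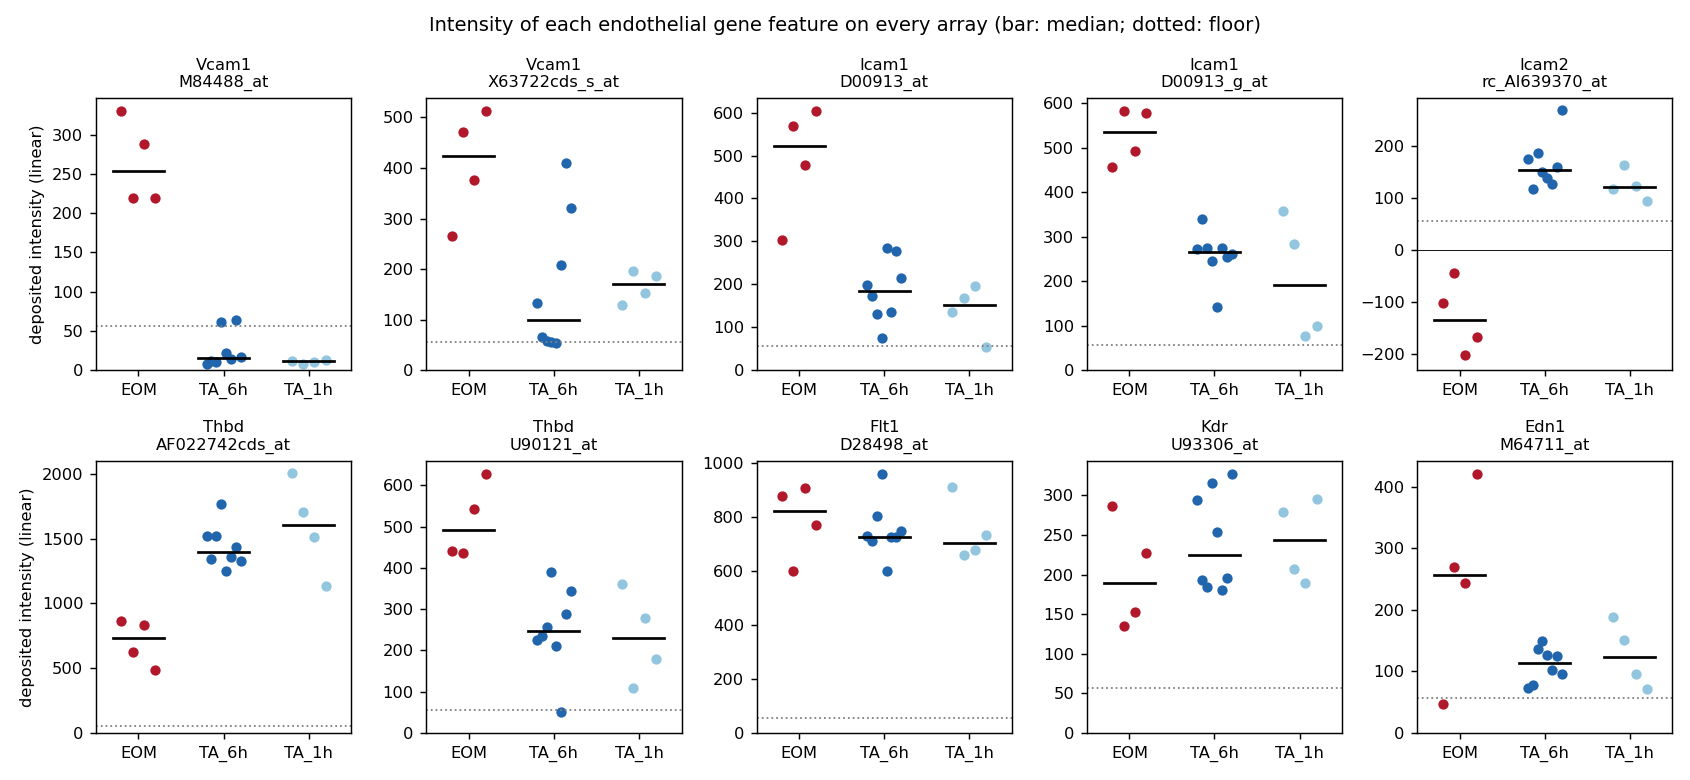
Deposited intensity (linear scale, vertical axis) of the 10 probe sets on every array of EOM, TA_6h and TA_1h, with a bar at each group's median and a dotted line at the floor of 56.5. All EOM arrays lie above all TA arrays for Vcam1 M84488_at, both Icam1 probe sets and Thbd U90121_at, and below all TA arrays for Icam2 and Thbd AF022742cds_at.

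Vcam1 was higher in EOM than in both TA groups through 1 probe set, and through the other the call held against TA_6h only. Probe set M84488_at had intensities of 330.6, 218.9, 288.6 and 219.2 on the EOM arrays. On the TA_6h arrays the lowest was 7.30, the median 15.9 and the highest 64.1, and on the TA_1h arrays the values were 11.5, 7.52, 10.8 and 12.5. Every EOM array was thus far above every TA array, and only 2 of the 12 TA arrays, TA_6h 2b and 4a, passed the floor. Testing required 4 arrays above the floor, so this probe set was tested only because its EOM arrays are high. The group means were 264 ± 55.0 in EOM, 26.0 ± 14.7 in TA_6h and 10.6 ± 1.53 in TA_1h (SD, n = 4, 4 and 2). The log2 difference from TA_6h was 2.16 ± 0.17 (SE, limma adjusted p = 8.44e-06), a lower limit because most TA_6h arrays lay at the floor. All TA_1h arrays lay there, and EOM was at least 4.61-fold higher than TA_1h (limma adjusted p = 4.44e-05). Floored TA samples are nearly equal, so these p-values take little spread from TA and can be too small.

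The second Vcam1 probe set, X63722cds_s_at, had 265.3, 470.8, 376.6 and 512.8 on the EOM arrays. Its TA_6h arrays had a lowest value of 52.8, a median of 98.9 and a highest value of 410.5, and the TA_1h arrays had 129.9, 197.1, 153.2 and 186.5. EOM stood above all TA_1h arrays, but TA_6h sample 4, with 320.9 and 410.5 on its pair of arrays, reached into the EOM range. The log2 difference was 1.71 ± 0.49 from TA_6h (limma adjusted p = 0.0163, with 6 of 8 TA_6h arrays above the floor). The mean intensities, 406 ± 110 in EOM and 163 ± 138 in TA_6h (SD, n = 4 each), differed by 2.49-fold, against 3.28-fold on the floored log2 scale. From TA_1h it was 1.26 ± 0.60 (limma adjusted p = 0.128, 95% interval -0.08 to 2.60). The 4 TA_6h arrays of low beta-actin ratio spanned 52.8 to 410.5 and the other 4 spanned 56.3 to 132.3, and the part of RNA quality in this spread was not tested. With only the low-ratio arrays kept as TA, this Vcam1 probe set differed from TA_6h by 0.99 and was not called (limma adjusted p = 0.191). Without those arrays the difference from TA_1h was 1.33 and was called (limma adjusted p = 0.0113), as it was at 1.26 without TA_6h replicate 4 (0.0157), where the shared estimate of the spread is smaller. A floor at the 40th percentile (1.25, 0.0329) and a batch term for low-ratio arrays (1.54, 0.0221) also gave a call against TA_1h.

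Icam1 was higher in EOM through both probe sets and against both TA groups. The names of both probe sets share the stem D00913, so they may not be separate evidence for the gene. Probe set D00913_at had 304.2, 568.2, 477.9 and 603.9 on the EOM arrays. It had a lowest value of 73.9, a median of 185.5 and a highest of 284.4 on the TA_6h arrays, and 135.4, 169.0, 195.9 and 55.1 on the TA_1h arrays. The lowest EOM array was above the highest TA array, though only narrowly. The group means were 489 ± 134 in EOM, 186 ± 61.4 in TA_6h and 139 ± 18.9 in TA_1h (SD, n = 4, 4 and 2). EOM differed from TA_6h by 1.46 ± 0.32 on the log2 scale (limma adjusted p = 0.00427) and from TA_1h by 1.91 ± 0.39 (limma adjusted p = 0.0039), with 1 of 4 TA_1h arrays at the floor.

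Probe set D00913_g_at of Icam1 had 457.2, 583.1, 493.6 and 577.3 on the EOM arrays. Its TA_6h arrays gave a lowest value of 141.7, a median of 266.3 and a highest of 341.0, and its TA_1h arrays gave 357.6, 283.9, 77.5 and 98.6. EOM was again above every TA array, and the pair of TA_1h samples was split, with sample 1 high and sample 2 low. The log2 difference was 1.06 ± 0.34 from TA_6h (limma adjusted p = 0.0289) and 1.65 ± 0.42 from TA_1h (limma adjusted p = 0.0121). The call against TA_6h ended without the low-ratio arrays (0.90, limma adjusted p = 0.183) and with the batch term (0.81, 0.0771). It also ended when EOM replicate 2, 3 or 4 or TA_6h replicate 2, 3 or 4 was left out, with adjusted p-values of 0.0520 to 0.0758. Against TA_1h it ended without TA_1h replicate 2, at a difference of 0.72 (limma adjusted p = 0.100). Leaving out a TA_1h replicate leaves 1 sample in that group, here and for Thbd below, and that sample is then assumed to vary like the other groups.

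Icam2 ran opposite to Icam1. Its only probe set, rc_AI639370_at, had -101.4, -42.95, -200.7 and -167.5 on the EOM arrays. The TA_6h arrays had a lowest value of 117.8, a median of 154.8 and a highest of 269.2, and the TA_1h arrays had 118.0, 163.8, 123.2 and 94.99. No EOM array reached the floor and every TA array did, so the floored EOM samples are equal and add no spread to the p-values. The probe set passed the filter on dim probe sets through TA arrays alone, where it is high. EOM was at least 2.84-fold lower than TA_6h (limma adjusted p = 9.16e-05) and at least 2.17-fold lower than TA_1h (limma adjusted p = 0.00276). The 4 EOM intensities are below 0, where no TA intensity of any probe set lies, and 15.4% of all tested probe sets had every EOM array at the floor. Raising the floor to the 40th percentile of all intensities ended both calls, with differences of -0.29 (limma adjusted p = 0.127) and -0.07 (0.785). With only the low-ratio arrays as TA the difference from TA_1h was -0.75 (limma adjusted p = 0.0596).

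Thbd gave opposite calls through its 2 probe sets, so no direction is given for the gene. Probe set AF022742cds_at had 859.9, 627.5, 832.0 and 487.5 on the EOM arrays. Its TA_6h arrays had a lowest value of 1252, a median of 1399 and a highest of 1770, and the TA_1h arrays had 2004, 1703, 1510 and 1132. Every EOM array was below every TA array. The log2 difference was -1.07 ± 0.22 from TA_6h (limma adjusted p = 0.00288) and -1.18 ± 0.27 from TA_1h (limma adjusted p = 0.00648). Against TA_1h the call ended without TA_1h replicate 1 (-0.93, limma adjusted p = 0.0750) and with only the low-ratio arrays as TA (-0.73, 0.154).

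The other Thbd probe set, U90121_at, had 441.2, 436.3, 543.6 and 628.4 on the EOM arrays. The TA_6h arrays had a lowest value of 51.6, a median of 246.3 and a highest of 388.8, and the TA_1h arrays had 361.1, 108.8, 279.6 and 180.2. Here every EOM array was above every TA array, the reverse of the first probe set. The log2 difference was 1.18 ± 0.33 from TA_6h (limma adjusted p = 0.0139, with 7 of 8 TA_6h arrays above the floor) and 1.26 ± 0.40 from TA_1h (limma adjusted p = 0.0314). The call against TA_6h ended with the batch term (0.94, limma adjusted p = 0.0994). Against TA_1h it ended in 7 of 22 alternatives, among them no filter (limma adjusted p = 0.0524) and leaving out EOM replicate 3 (0.0620), EOM replicate 4 (0.0672), TA_1h replicate 1 (0.155) or TA_1h replicate 2 (0.106). The annotation used here does not say which part of the Thbd transcript each probe set reads. Across the 10 numbered samples the pair had a Pearson correlation of -0.74, while it was 0.82 between the 2 Icam1 probe sets and 0.71 between those of Vcam1. These samples share the group difference, so the values are a description.

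**Figure D2:**
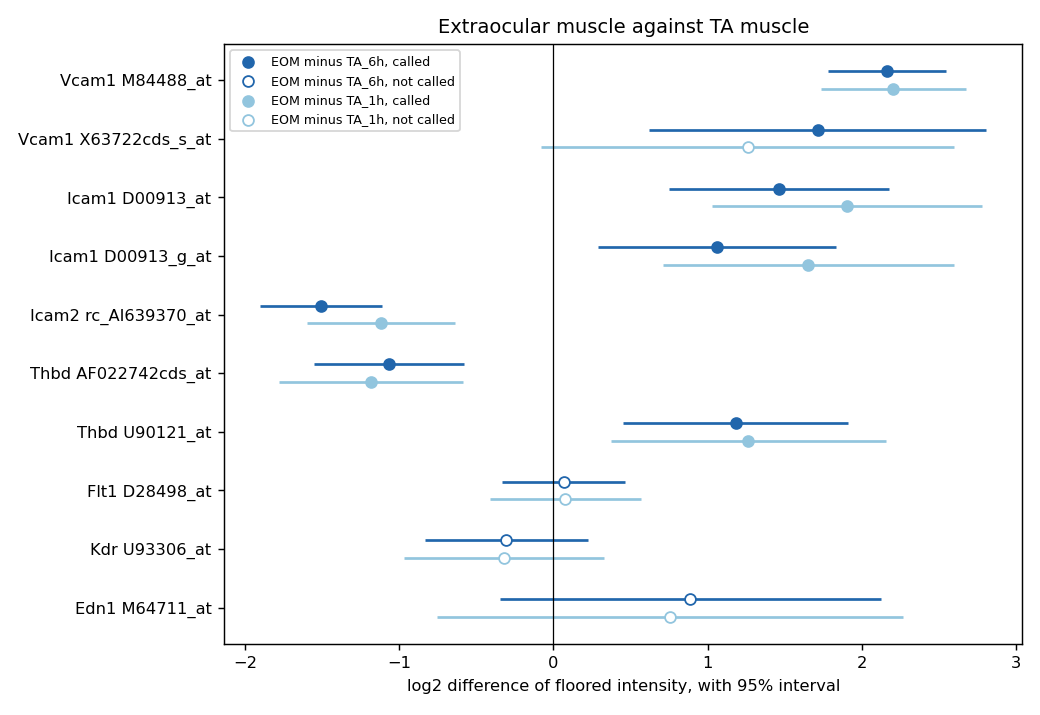
Log2 difference of floored intensity, EOM minus TA_6h (dark) and EOM minus TA_1h (light), with 95% intervals from limma for each probe set, filled where called. The Vcam1 and Icam1 points lie between 1.06 and 2.20, and Icam2 and Thbd AF022742cds_at lie below -1. The intervals of Flt1, Kdr and Edn1 cross 0, as does that of Vcam1 X63722cds_s_at against TA_1h.

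The VEGF receptors were not called. Flt1 (D28498_at) had 877.1, 601.0, 907.4 and 768.8 on the EOM arrays, a lowest of 599.8, a median of 726.5 and a highest of 960.5 on the TA_6h arrays, and 910.5, 657.5, 676.3 and 731.9 on the TA_1h arrays. The groups overlapped throughout, and the log2 difference was 0.07 ± 0.18 from TA_6h (limma adjusted p = 0.781, 95% interval -0.33 to 0.46) and 0.08 ± 0.22 from TA_1h (limma adjusted p = 0.809, interval -0.41 to 0.57). Kdr (U93306_at) had 286.3, 134.7, 152.4 and 226.7 on the EOM arrays, a lowest of 179.9, a median of 225.1 and a highest of 327.5 on the TA_6h arrays, and 279.5, 207.1, 189.2 and 295.5 on the TA_1h arrays. EOM samples 2 and 3 were below all TA arrays and EOM sample 1 was in their upper range. The log2 difference was -0.31 ± 0.24 from TA_6h (limma adjusted p = 0.310, interval -0.84 to 0.22) and -0.32 ± 0.29 from TA_1h (limma adjusted p = 0.421, interval -0.97 to 0.33). Neither receptor was called in any of its 23 alternatives against either TA group, and the intervals of Flt1 leave room for a difference of up to 0.57 in size on the log2 scale.

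Edn1 (M64711_at) depended on 1 EOM sample. The EOM arrays had 47.7, 269.8, 243.0 and 421.3, the TA_6h arrays a lowest of 73.2, a median of 113.1 and a highest of 149.5, and the TA_1h arrays 187.7, 150.5, 96.3 and 70.7. EOM sample 1 was below every TA array and below the floor, and the other 3 EOM samples were above every TA array. The log2 difference was 0.89 ± 0.55 from TA_6h (limma adjusted p = 0.212, interval -0.35 to 2.12) and 0.76 ± 0.68 from TA_1h (limma adjusted p = 0.416). Without EOM replicate 1 it was 1.49 (limma adjusted p = 0.00624) and 1.36 (0.0269), and with the floor at the 40th percentile it was called against TA_6h at 0.86 (0.0330).

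Between the TA times no member was called: 0 of the 10 had an adjusted p under 0.05 in TA_6h against TA_1h, as did 0 of all 7640 tested probe sets (0.00%). At an unadjusted p under 0.05 limma gave 0 of the 10 and 424 of all tested, and the smallest member p was 0.103, for Icam2. Log2 differences of the Icam1 probe sets were 0.45 (95% interval -0.43 to 1.32) and 0.59 (-0.35 to 1.54), and that of Vcam1 X63722cds_s_at was -0.45 (-1.79 to 0.89). Flt1 and Kdr differed by 0.01 (-0.48 to 0.50) and -0.01 (-0.66 to 0.63). With 2 TA_1h samples the intervals are wide, and they do not show that the times are alike. Arrays of the same TA sample differed by a median of 0.63 on the log2 scale for Kdr and 0.62 for Thbd U90121_at, and by 0.19 for Flt1 and 0.20 for Thbd AF022742cds_at.

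**Figure D3:**
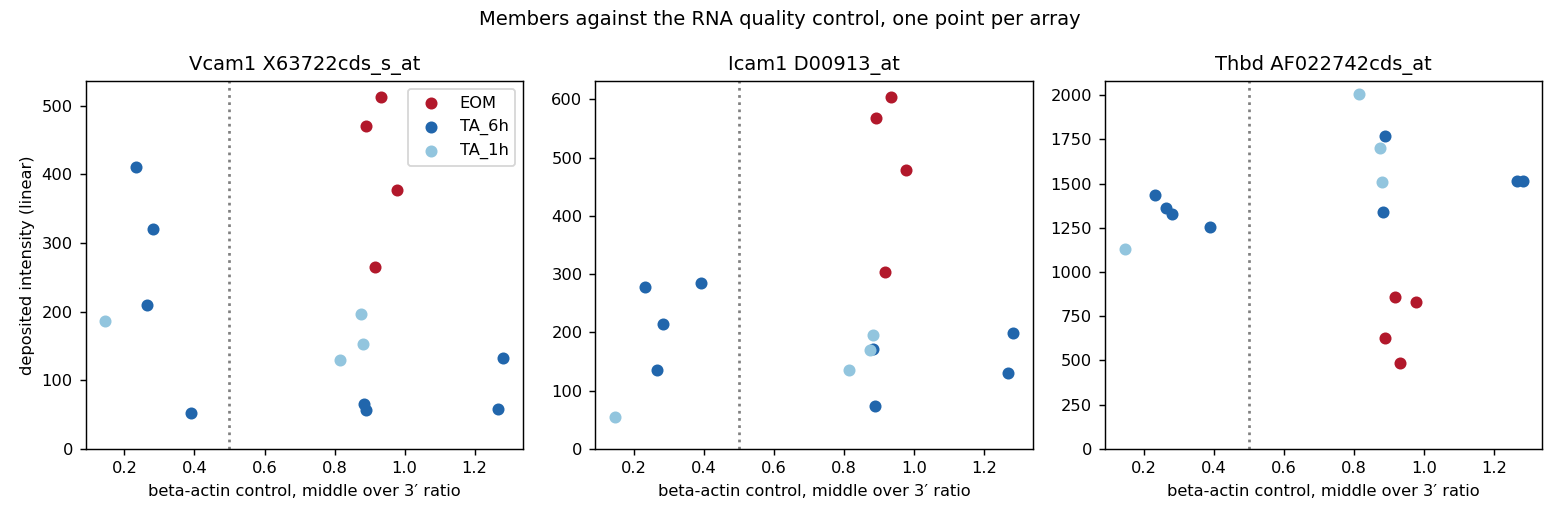
Deposited intensity of 3 probe sets (vertical axis) against the beta-actin middle over 3′ ratio of the same array (horizontal axis, dotted line at 0.5), 1 point per array of EOM, TA_6h and TA_1h. For Vcam1 X63722cds_s_at the highest TA points, up to 410.5, are TA_6h arrays of low ratio. For Icam1 D00913_at and Thbd AF022742cds_at the EOM points stand apart from TA on both sides of the line.

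Ligands and partners of the VEGF receptors were counted through the brightest tested probe set of each gene, as were all lists that follow. Over all 4317 genes counted this way 22.6% were called higher and 25.3% lower against TA_6h, with a median difference of -0.08, and 18.4% higher and 19.0% lower against TA_1h, also with a median of -0.08. Of 5 tested VEGF genes 3 were higher in EOM than TA_6h and 0 lower. They were Vegfd (log2 1.77 ± 0.32), a ligand of the family, Vegfb (1.02 ± 0.36), a ligand of VEGFR-1, and the co-receptor Nrp1 (1.01 ± 0.20). Vegfd alone of the 5 was called against TA_1h. Pgf, placental growth factor and a VEGFR-1 ligand, differed by -0.85 ± 0.33 (limma adjusted p = 0.0552). Vegfa, the main ligand of both receptors, had a difference of 0.78 ± 0.63 (limma adjusted p = 0.326) in its brightest probe set, and another, M32167_at, was called lower at -3.79 ± 0.63 with every EOM array at the floor.

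Of 6 other genes of the endothelin system, 3 were on the array, and all 3 were called lower than in TA_6h through their brightest probe sets. Edn3 was at -3.34 ± 0.16 and Edn2 at -0.98 ± 0.20, both genes encoding endothelin peptides and both with every EOM array at the floor. Ece1, the enzyme that releases active endothelin-1 from its precursor, was at -0.43 ± 0.16 (limma adjusted p = 0.0453). The second probe sets of Edn3 (-0.33 ± 0.13, limma adjusted p = 0.0654) and Ece1 (0.49 ± 0.48, 0.424) were not called. Against TA_1h Edn2 and Edn3 were called lower and Ece1 was not (-0.17 ± 0.19).

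Counter-receptors and linkers of the adhesion molecules were mixed, with 2 of 5 higher and 1 lower than in TA_6h. Itgam, the alpha chain of the leukocyte integrin Mac-1 that binds ICAM-1, was higher at 0.92 ± 0.17. Ezr, encoding ezrin, which ties ICAMs to the actin cytoskeleton, was higher at 2.25 ± 0.32. Itgb1, the beta chain of the VCAM-1 receptor VLA-4, was lower at -0.64 ± 0.18, and Itgb7, the beta chain of another VCAM-1 receptor, differed by 0.05 ± 0.23 (limma adjusted p = 0.873), while another of its probe sets was called lower (-0.59 ± 0.18). Against TA_1h Itgam and Ezr were called higher and none of the 5 lower. Among 7 other adhesion molecules 1 was higher, Alcam (1.49 ± 0.22), and 3 were lower. These were the hyaluronan receptor Cd44 (-1.59 ± 0.48), the selectin ligand Glycam1 (-1.37 ± 0.32) and the cytokine-inducible E-selectin gene Sele (-0.93 ± 0.18). Glycam1 and Sele had every EOM array at the floor. Against TA_1h 1 of the 7 was higher and 2 were lower, and Sele was not called (-0.28 ± 0.22, limma adjusted p = 0.344).

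Around thrombomodulin 5 of 9 tested genes of coagulation and fibrinolysis were higher than in TA_6h and 2 lower. F3, tissue factor, which starts coagulation, was higher at 2.65 ± 0.28, and Tfpi, its inhibitor, at 2.28 ± 0.42. Plat, tissue plasminogen activator, was higher at 1.70 ± 0.19, and Plaur, the urokinase receptor, was lower at -2.12 ± 0.24 with every EOM array at the floor. F2, encoding prothrombin, from which thrombomodulin's ligand is made, differed by -0.32 ± 0.21 (limma adjusted p = 0.239), and Proc, encoding protein C, was too dim to be tested. Against TA_1h 4 of the 9 were higher and 1 lower.

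Genes of the NF-kappaB and cytokine list were mostly lower where called, with 1 of 8 higher than in TA_6h and 4 lower. Ccl2, a chemokine, was higher at 1.23 ± 0.28. Nfkbia, the NF-kappaB inhibitor and itself a target of it, was lower at -1.31 ± 0.23. The TNF receptor gene Tnfrsf1a was lower at -3.12 ± 0.47, with 3 of 4 EOM arrays above the floor and an EOM mean of 100.6 (SD 151.5). Il1a was lower at -1.82 ± 0.34, with every EOM array at the floor. Another probe set of Il1a, E05489cds_s_at, was called higher (0.92 ± 0.34, limma adjusted p = 0.0472), so Il1a has no single direction. Against TA_1h the counts were also 1 higher and 4 lower.

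**Figure D4:**
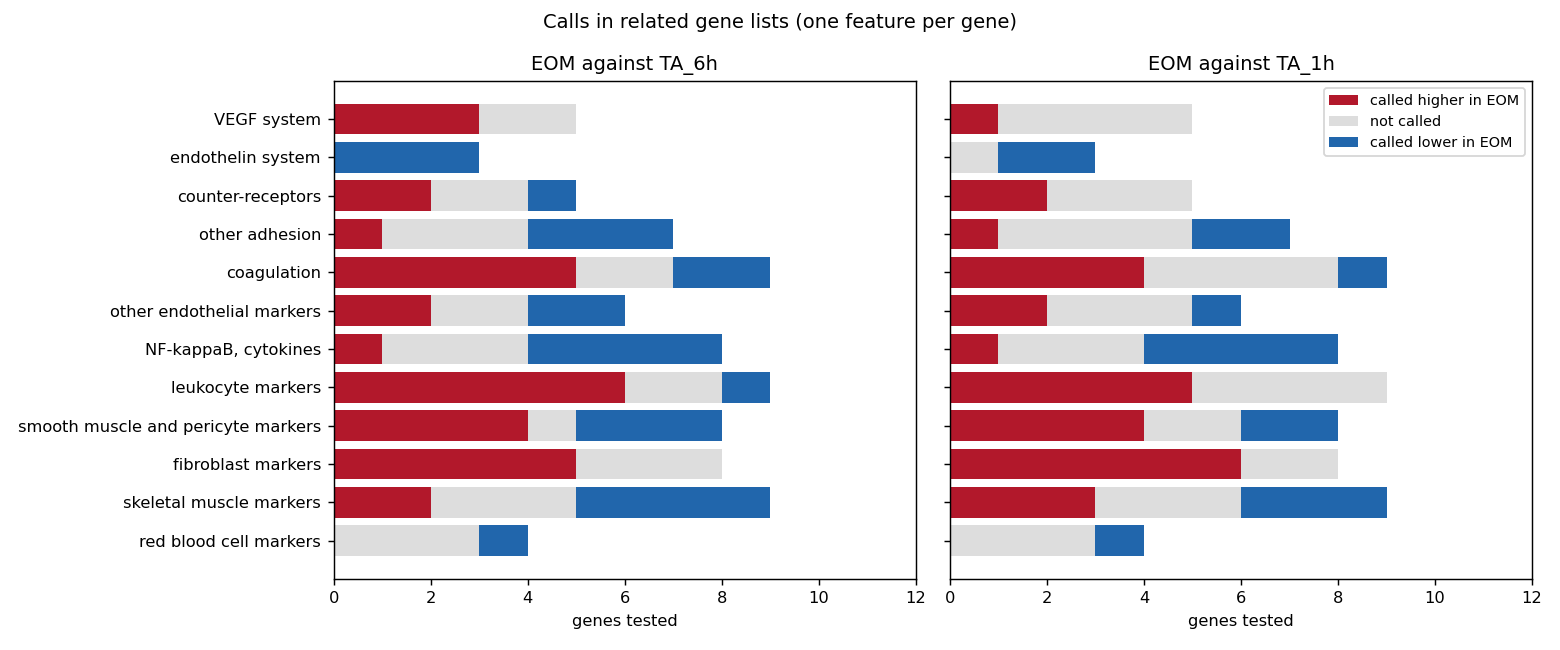
Number of genes tested in each related list (horizontal axis), split into genes called higher in EOM, not called and called lower in EOM, against TA_6h (left panel) and TA_1h (right panel). Counted by brightest probe sets, the endothelin system has no gene called higher and the fibroblast list has none called lower.

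Other markers of endothelium did not move in 1 direction. Of 6 tested, 2 were higher than in TA_6h, the angiotensin-converting enzyme gene Ace (1.83 ± 0.26) and the transcription factor gene Klf4 (1.40 ± 0.26). The other 2 called were lower, Egfl7 (-3.05 ± 0.48, with 2 of 4 EOM arrays above the floor) and Angpt2 (-1.08 ± 0.38, with none above it). Against TA_1h 2 were higher and 1, Egfl7, was lower. Named outside the rule for their use as defining markers, Pecam1 had 555 ± 102 in EOM, 446 ± 263 in TA_6h and 438 ± 54.4 in TA_1h, and was not called (0.51 ± 0.40, limma adjusted p = 0.314). Vwf, counted with the coagulation genes, was called higher than in TA_6h through its brightest probe set (0.51 ± 0.16, limma adjusted p = 0.0261). That probe set was not called against TA_1h (0.26 ± 0.20, 0.333). Its other probe set, with every EOM array at the floor, was called lower than in TA_1h (-0.67 ± 0.20, 0.0248) but not against TA_6h (-0.40 ± 0.16, 0.0687). Nos3, the endothelial nitric oxide synthase gene, differed by -0.03 ± 0.32 through its brightest probe set (limma adjusted p = 0.937). Other Nos3 probe sets were called, AJ011115_at higher (1.79) and AJ011115_g_at and AJ011116_at lower (-1.56 and -2.14), so Nos3 has no single direction. Summed over the list, intensity was 5335 to 6859 in the EOM samples, 1861 to 4805 in TA_6h and 2714 to 4112 in TA_1h. TA_6h samples 3 and 4, of low beta-actin ratio, had 1861 and 2493, and samples 1 and 2 had 4805 and 4083. In EOM the brightest genes were Ace (mean 2222, with 653 in TA_6h and 610 in TA_1h) and Cav1 (2006, 653 and 827). Cav1 was not called against TA_6h (2.86 ± 1.11, limma adjusted p = 0.0568). The part of RNA quality in these sums was not tested. In whole muscle, fewer cells of a type and less RNA per cell cannot be told apart.

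Markers of other cells of muscle were counted in the same way. Of 9 leukocyte markers 6 were higher than in TA_6h and 1 lower, with Cd53 at 2.84 ± 0.18, the macrophage gene Aif1 at 2.58 ± 0.18 (with another probe set called lower), lysozyme Lyz2 at 2.55 ± 0.21 and the T cell gene Cd8a at -1.03 ± 0.26. Against TA_1h 5 were higher and 0 lower, and Cd8a differed by -0.08 ± 0.31 (limma adjusted p = 0.875). The summed intensity of the list was 12227 to 17445 in the EOM samples, 3758 to 6337 in TA_6h and 3590 to 4248 in TA_1h. Such a sum is set by its brightest probe sets, here Lyz2 (mean 8454 in EOM, 1468 in TA_6h and 1346 in TA_1h) and Cd74 (3823, 2100 and 1115 in the same groups). Among the brightest probe sets of the list, only that of Cd8a had every EOM array at the floor. Of 8 fibroblast markers 5 were higher than in TA_6h and 0 lower (6 and 0 against TA_1h), led by Lum (4.42 ± 0.26) and Vim (2.02 ± 0.17). Fn1, 1 of the 5, was called lower than in TA_6h through another probe set, U82612cds_at (-1.53 ± 0.31, limma adjusted p = 0.00279). Sums of the fibroblast list were 69269 to 88182 in EOM, 41017 to 69620 in TA_6h and 32088 to 34205 in TA_1h. Among 8 markers of smooth muscle and pericytes, 4 were higher than in TA_6h and 3 lower (4 and 2 against TA_1h). Cald1 was at 3.11 ± 0.36 and Cspg4 at -2.07 ± 0.26, the latter with 2 of 4 EOM arrays above the floor. Sums of that list were 7957 to 9412 in EOM, 4205 to 12397 in TA_6h and 6844 to 7658 in TA_1h. Skeletal muscle markers gave 2 higher and 4 lower of 9 (3 and 3 against TA_1h), and red blood cell markers 0 higher and 1 lower of 4 in both comparisons. The part of these cells in the differences of Vcam1, Icam1, Icam2 and Thbd was not tested.

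The probe sets most like each member were sought by Pearson correlation of floored log2 intensity over the 10 numbered samples, among 3319 probe sets with 1 gene symbol above the floor on all 16 arrays. For Vcam1 X63722cds_s_at these were Pea15 (0.96) and Itpr3 (0.94), and for Icam1 D00913_g_at Gramd4 (0.96) and Hadhb (0.95). For Icam2 they were Mylk2 and Aldh1l1 (both 0.98), and for Thbd AF022742cds_at Dbn1 and Pxn (both 0.97). For the members with no call they were Chrna9 (0.87) and Rnpep (0.86) for Flt1, Tnp1 and Plk1 (0.82 and 0.81) for Kdr, and Kcnh4 (0.91) and Sult2a2 (0.89) for Edn1. A called member shares its step between EOM and TA with many probe sets, so higher values for called members follow from the calls. For Icam2 all EOM samples are equal at the floor. The samples share group and array, so these are descriptions of likeness over 10 points.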

How the data were processed

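The authors deposited 1 linear intensity for each probe set on each array, and these intensities were used unchanged. How they were summarised and scaled is not stated in the labels. After trimming 2% of values at each end, mean intensity ran only from 801.1 to 801.8 across arrays, so by that measure they share a scale. Probe sets were named from the platform's annotation, and 7018 of 8799 have 1 symbol. The 59 control probe sets were left out. Values were raised to the 25th percentile of all intensities and log2 was taken. Arrays sharing group and number were averaged. The 7640 probe sets exceeding the floor on 4 or more of 16 arrays were tested, with all 3 groups in a single fit in R 4.3.3 by limma 3.58.1 (lmFit, eBayes, 7 residual and 2.83 prior degrees of freedom, two-sided, no covariates). Benjamini-Hochberg adjustment ran over all 7640. The fit was also run on simulated data with independent noise and no floor, which does not bear on floored probe sets. Log2 differences carry standard errors, and mean intensities carry SDs across numbered samples. A log2 difference is a lower limit, on that averaged scale alone, where the lower group is partly floored and the higher is not. Where the lower group is floored throughout, the fold is written "at least". The number of arrays limits the precision.

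All member probe sets are named. Other genes are named where their brightest probe set was called against TA_6h, at most 4 per list by size, with ligands, receptors and counter-receptors of members. Members and lists were chosen with earlier results of these data known. Alternatives changed the floor, log transform, scaling, filter, unit of replication, replicate block, limma's intensity trend, the low beta-actin TA arrays and single replicates. A batch term for those arrays was added after seeing the data. Python 3.11.15 with matplotlib 3.10.9 drew the figures.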

Additional observations from a re-analysis of the deposited data

How the results depend on the processing

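The 30 member differences kept their direction wherever they were called, over 23 settings. Of 672 values, 641 stayed on their side of the threshold, 23 lost a call and 8 gained one. Calls in EOM against TA_6h and against TA_1h numbered 1927 and 1512 when testing just the 4041 that exceed the floor on each of the 16 arrays, against 3606 and 2843 in the fit reported. That filter tests 4 members and called 2 in either comparison. With only the low beta-actin TA arrays kept as TA, EOM against TA_1h called 3 members, and TA_6h against TA_1h called 681 probe sets (377 higher, 304 lower) and 1 member, Icam1 D00913_g_at (adjusted p = 0.0453). There, and where a TA_1h replicate is left out, the lone TA_1h sample is assumed to vary like the other groups. The calls in TA_6h against TA_1h, 0 in the fit reported, were 1 under the same filter, 8 with no filter, 1 with each array its own sample, 45 without the low-ratio arrays and 57 with them as a batch term. Leaving out single replicates gave 0 to 1 calls there, and 1861 (without TA_1h replicate 1) to 3045 calls for EOM against TA_1h. The causes were not tested beyond the fewer samples or probe sets in some settings. The median difference of all tested probe sets, -0.11 and -0.09 from TA_6h and TA_1h, was -0.26 and -0.29 for the 10th percentile as floor and 0.12 and 0.09 under the 16-array filter.

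With number as a replicate block, 3507 probe sets and 7 members were called against TA_6h and 2540 and 6 against TA_1h. Deviations of same-numbered EOM and TA_6h samples correlated at 0.105, 0.02, 0.03 and 0.07, so the numbers were not taken to pair samples, although each EOM sample correlated best with its own number (2 of the 4 TA_6h samples did).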

Other observations

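Some genes of the related lists also had probe sets that were called in opposite directions, as those of Thbd were. Nos3 had 5 tested probe sets. AJ011115_at was higher in EOM than in TA_6h at 1.79 ± 0.36 (limma adjusted p = 0.00259), AJ011115_g_at and AJ011116_at were lower at -1.56 ± 0.34 and -2.14 ± 0.30, and the other 2 were not called. AJ011116_at had every EOM array at the floor, with a mean of -25.5 ± 13.7 in EOM and 265 ± 95.5 in TA_6h (SD, n = 4 each). Aif1 was higher through U10894_s_at (3.08 ± 0.17) and U17919_s_at (2.58 ± 0.18) and lower through U33471_at (-1.58 ± 0.16), the last with every EOM array at the floor. Tagln was higher through M83107_at (1.61 ± 0.30) and lower through M83107_g_at (-2.50 ± 0.71). Il1a was lower through D00403_at (-1.82 ± 0.34, every EOM array at the floor) and higher through E05489cds_s_at (0.92 ± 0.34). Fn1 was higher through X05834_at (1.39, limma adjusted p = 0.00954) and lower through U82612cds_at (-1.53, 0.00279). These genes were named after their values were seen.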
